A study of Homo sapiens with 2 samples.

Results

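The genes described here make up the core machinery of programmed cell death, namely the BCL2 family, the caspases with their activators and inhibitors, the death receptors of the TNF superfamily and the kinases of necroptosis. They were a named list of 35 genes, and 32 of them were measured by an array row annotated to that gene alone, out of 22465 genes with such a row in the whole series. For a gene with several rows, the row with the highest mean of both arrays was taken. CFLAR lay only in a row shared with its antisense gene, and no row was tied to RIPK1 or BIRC3, so these 3 genes were not analysed here. Total RNA of KYSE150, a cell line long grown from a human squamous carcinoma of the esophagus, was hybridized to the Affymetrix Human Transcriptome Array 2.0. The knockdown group carried a lentiviral hairpin that targets lncRNA625, a long non-coding RNA (shlncRNA625), and the control group carried a scrambled hairpin (shscramble). Per the methods, the knockdown cells were kept under puromycin and screened as multiple clones by PCR, but whether the array used 1 clone or a pool is not stated. A sample label speaks of siRNA in place of a stable hairpin. No row could be tied to lncRNA625 by name, so its own level was not checked here.

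Each group held 1 array, so no value below has an error or a test, and precision is limited by that number. Values are on the deposited log2 scale, and a difference is shlncRNA625 minus shscramble. Of the markers of squamous epithelium, 8 of 12 had a row of their own. The basal keratin KRT5 was at 16.11 on the shlncRNA625 array and 16.50 on the shscramble array, while KRT14 and KRT16 lay within background. Background here means at or below 6.003, the highest value among the 23 rows of background probes. The median of those rows was 3.34 on both arrays, so a value within background can still exceed a typical background row. SOX2, a transcription factor of squamous cells, was higher, with 8.40 on the shlncRNA625 array and 7.87 on the shscramble array, and the desmosomal cadherin DSG3 was lower, with 11.25 on the shlncRNA625 array and 11.51 on the shscramble array. DSC3, PKP1 and PERP were equal on both arrays. All 26 measured markers of leukocytes, fibroblasts, endothelium and columnar epithelium were equal on both arrays, at 3.41 to 4.89. Since RNA was taken from a whole culture, a lower level of a transcript in each cell and a smaller share of cells that make it cannot be told apart.

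In the intrinsic route of apoptosis, pro- and anti-apoptotic proteins of the BCL2 family decide whether the outer mitochondrial membrane is opened. Cytochrome c then leaves the mitochondria and assembles with APAF1 into the apoptosome, which activates caspase-9. In the extrinsic route, ligands such as TRAIL or TNF bind death receptors at the cell surface, and adaptor proteins recruit caspase-8. Where caspase-8 is inactive, RIPK1 and RIPK3 can instead drive MLKL to rupture the plasma membrane, which is termed necroptosis. The inflammatory caspases form a further branch. They cleave gasdermin D and, in the case of caspase-1, mature interleukin-1 beta. Squamous carcinomas often carry defects in these routes.

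Of the 32 measured genes, 3 were higher on the shlncRNA625 array, 1 was lower and 28 had exactly the same value on both arrays, to the 6 decimals deposited. The higher genes were CASP4, CASP1 and TNFSF10, and the lower one was MLKL. Only CASP4 passed the 1.5-fold limit that the study applied to these arrays. Genes were counted where the mean of both arrays reached 4.97, the median of all rows with a single gene, and 29 of the 32 did so. BCL2A1, BMF and RIPK3 did not, and each was equal on both arrays. Of the 29, 1 was higher by more than 1.5-fold, and of all 11323 genes past the limit 1.11% were. None of the 29 was lower by that much, and of all genes 0.477% were. By any amount, 3 of the 29 were higher, where 11.8% of all genes were higher, and 1 was lower, where 12.1% of all genes were. The median difference was 0 over the 29 and 0 over all genes.

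Most genes had the same value on both arrays. Only 24.0% of all genes past the limit had unequal values, and 13.8% of the 29 did. The share of unequal values was larger at higher signal, being 9.69% among genes with a mean of 5 to 6 and 47.9% among those with a mean of 11 to 12. Weighted to the signal of the 29, the share over all genes was 20.2%, which would be 5.85 genes of 29, and 4 were found. A difference of exactly 0 therefore cannot be read as a measured equality, and the sentences below give equal values as values only.

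**Figure D1:**
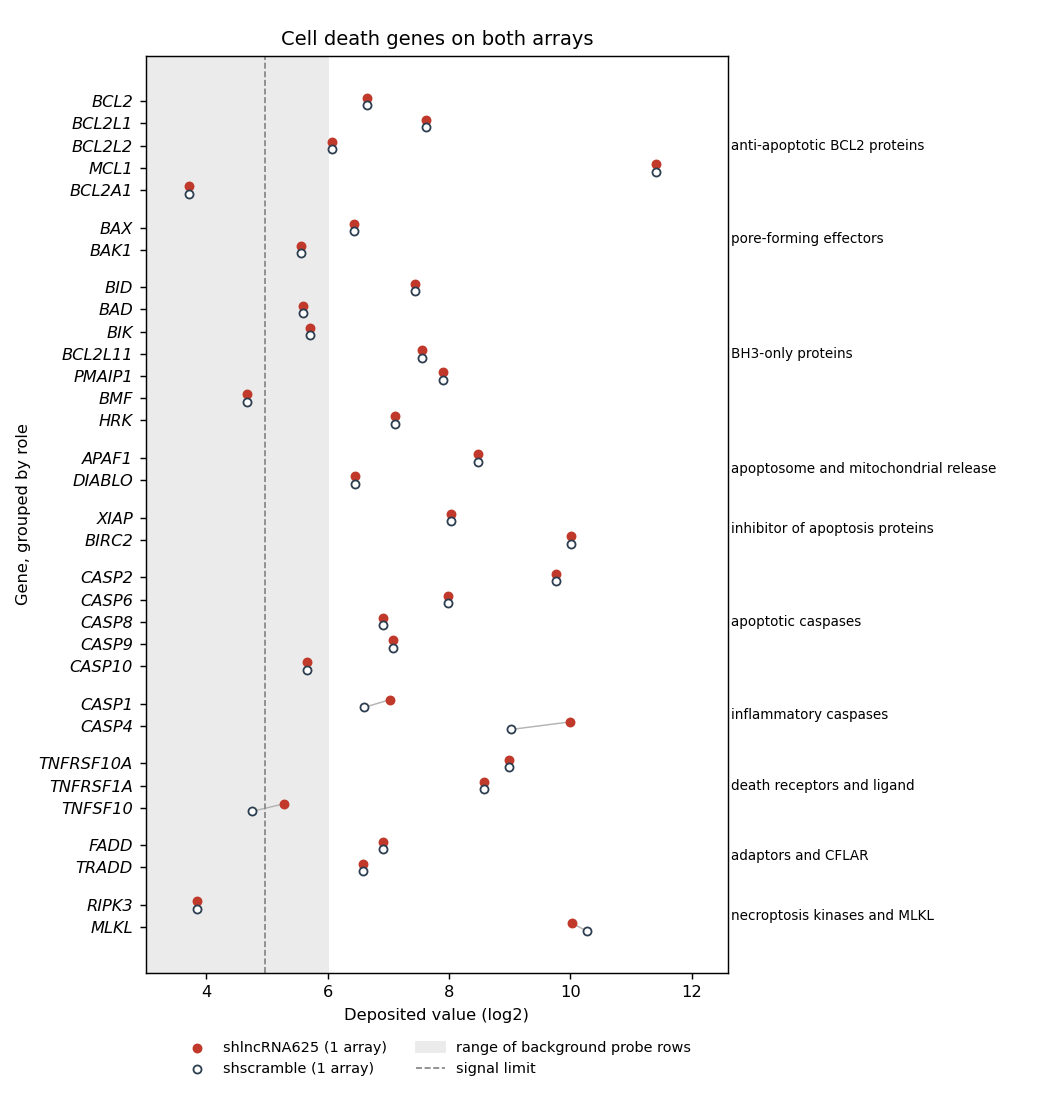
Deposited log2 value (x axis) of each of the 32 measured genes (y axis, grouped by role) on the shlncRNA625 array (filled points) and the shscramble array (open points). The points of CASP4, CASP1, TNFSF10 and MLKL lie apart along the axis and those of the other 28 genes, drawn one above the other, stand at the same value, and positions are to be compared within a gene, since probes of different genes respond differently.

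The 2 inflammatory caspases on the list were both higher on the shlncRNA625 array. CASP4 encodes caspase-4, which binds bacterial lipopolysaccharide in the cytosol and cleaves gasdermin D. It was at 9.99 on the shlncRNA625 array and 9.02 on the shscramble array, a difference of 0.97 or 1.96-fold, so that it did not pass the 2-fold limit named in the study's methods. This was the 36th highest difference among the 11323 genes. Among the 1223 genes with a mean within 0.5 of that of CASP4, 5 were higher by at least as much, CASP4 included. Both values lay well above background.

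CASP1 encodes caspase-1, the protease of the inflammasome. It was at 7.02 on the shlncRNA625 array and 6.60 on the shscramble array, a difference of 0.42 or 1.34-fold. It held the 199th place, and 27 of the 2015 genes of like signal were higher by at least as much. Its values lay above background as well, but the difference was within the 1.5-fold limit.

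CASP1 and CASP4 are neighbours on chromosome 11, in a cluster of inflammatory caspases and CARD-only genes. The stretch from CASP12 to CARD18 was therefore looked at as a whole, a choice made after the values of both genes had been seen. Of 14 RefSeq genes in it, 8 had a row of their own. Besides CASP4 and CASP1, the only gene that differed was CARD16, a CARD-only relative of CASP1 known to bind caspase-1. It was at 4.44 on the shlncRNA625 array and 4.29 on the shscramble array, a difference of 0.15, and both values were below the signal limit. CASP5, which lies between CASP4 and CASP1 and encodes another lipopolysaccharide-binding caspase, was at 4.16 on both arrays. CASP12, CASP4LP, CARD17P and CARD18 were also equal on both arrays, at 3.55 to 4.50. These genes are close relatives in sequence, and how far their probes are shared was not tested.

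**Figure D2:**
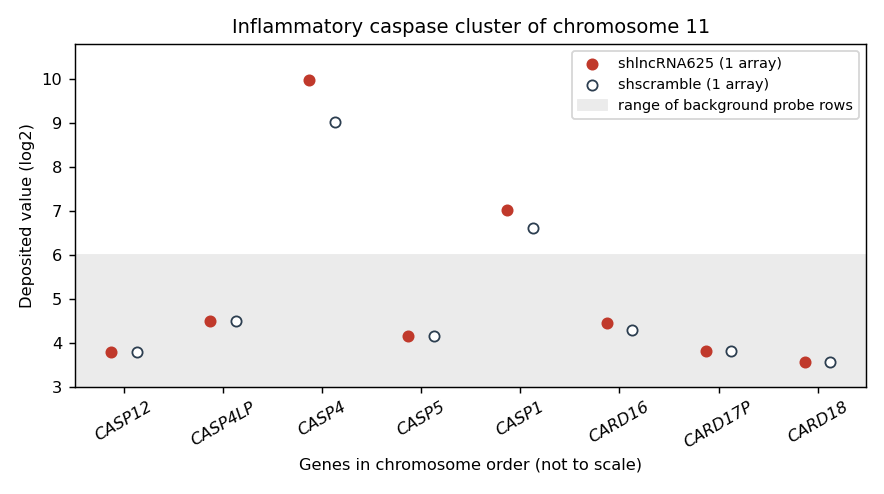
Deposited log2 value (y axis) of the 8 genes with a row of their own between CASP12 and CARD18, in chromosome order (x axis, not to scale), on the shlncRNA625 array (filled points) and the shscramble array (open points). CASP4 and CASP1 lie above the grey background range on both arrays and are higher on the shlncRNA625 array, and the other 6 genes lie within that range.

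TNFSF10 encodes TRAIL, the ligand that triggers apoptosis through the receptors TNFRSF10A and TNFRSF10B. It was at 5.28 on the shlncRNA625 array and 4.75 on the shscramble array, a difference of 0.53 or 1.44-fold. This was the 144th highest difference, and 11 of the 1358 genes of like signal were higher by at least as much. Both values, however, lay within background. The shscramble value was below the signal limit, so TNFSF10 was counted only because of its shlncRNA625 value, and with the limit asked of both arrays it was left out. Its place among these genes is therefore no independent measure.

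TNFRSF10A, a receptor for TRAIL, was at 8.99 on both arrays, and TNFRSF1A, the main receptor for TNF, at 8.58 on both. The adaptors were equal as well. FADD, which links death receptors to caspase-8, was at 6.91 and TRADD, which binds TNFRSF1A, at 6.58 on both arrays.

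MLKL, the executioner of necroptosis, was the only one of the 32 genes with a lower value on the shlncRNA625 array. It was at 10.04 on the shlncRNA625 array and 10.27 on the shscramble array, a difference of -0.23, which is 1.18-fold lower. This was the 357th lowest difference of 11323, and 59 of the 975 genes of like signal were lower by at least as much. Both values were far above background. RIPK3, the kinase that activates MLKL, was at 3.85 on both arrays, within background, and whether it was expressed was not tested.

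Promoters were planned for genes of the list past 1.5-fold, which is CASP4 alone. Those of TNFSF10 and MLKL, which also differed, were added to that plan. CASP1, CASP4, TNFSF10 and MLKL are all known to respond to interferon, but whether interferon had a part in these differences was not tested. The promoters are given as the 250 bases before the gene start, 5′ to 3′ on the strand of the gene, from RefSeq on GRCh38.p14. The promoter table matched 27 of the 35 genes, and CASP1 was not among them. The CASP4 window is chr11:104968575-104968824, that of TNFSF10 chr3:172523431-172523680 and that of MLKL chr16:74700863-74701112, all on the minus strand. Capitals mark matches to the core of the interferon-stimulated response element, searched as GAAANNGAA on both strands.
CASP4: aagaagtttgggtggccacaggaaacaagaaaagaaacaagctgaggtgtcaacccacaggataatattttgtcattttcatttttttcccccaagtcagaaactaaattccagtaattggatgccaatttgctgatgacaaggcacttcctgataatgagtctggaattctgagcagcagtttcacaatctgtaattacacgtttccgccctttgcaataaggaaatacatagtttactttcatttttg
TNFSF10: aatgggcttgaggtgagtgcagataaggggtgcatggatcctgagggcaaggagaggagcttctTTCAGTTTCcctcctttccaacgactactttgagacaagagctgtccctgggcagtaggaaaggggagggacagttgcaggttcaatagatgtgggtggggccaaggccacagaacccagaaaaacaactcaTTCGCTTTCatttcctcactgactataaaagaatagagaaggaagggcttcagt
MLKL: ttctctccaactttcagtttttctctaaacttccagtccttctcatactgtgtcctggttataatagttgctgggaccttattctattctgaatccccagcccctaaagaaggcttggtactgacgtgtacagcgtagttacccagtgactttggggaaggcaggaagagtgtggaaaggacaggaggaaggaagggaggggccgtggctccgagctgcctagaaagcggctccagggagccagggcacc
The TNFSF10 window held 2 such matches, on the reverse strand at bases -186 to -178 and -54 to -46 from the start, reading TTCAGTTTC and TTCGCTTTC on the printed strand. Of all 27305 promoters of this length, 7.06% held the motif, and 3 of the 27 matched here did, the others being BCL2A1 and BIRC2. The GAS motif, TTCNNNGAA, was in 6.78% of all promoters and in those of BCL2A1 and CASP8. The NF-kappaB consensus was in 9.57% of all promoters and in those of BIRC3, BMF and CFLAR. Neither was found in the 3 windows printed above. A match is a match of letters and not a binding site, and no match says only that the letters are not in this window.

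All 14 measured members of the BCL2 family had equal values on both arrays. Of the anti-apoptotic proteins, which hold the mitochondrial membrane closed, MCL1 was at 11.41, BCL2L1 at 7.62, BCL2 at 6.65 and BCL2L2 at 6.08 on both arrays. BCL2A1 was at 3.71 on both, below the signal limit. Of the effectors that form the pore, BAX was at 6.44 on both arrays, while BAK1, at 5.55, lay within background.

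The BH3-only proteins sense stress and engage the other family members, and all 7 were equal on both arrays. PMAIP1, which encodes NOXA and binds MCL1, was at 7.91. BCL2L11, which encodes BIM, was at 7.55, and its second row was equal on both arrays too, at 5.33. BID, which caspase-8 cleaves to link the extrinsic to the intrinsic route, was at 7.44 and HRK at 7.11. BIK, BAD and BMF, at 5.71, 5.59 and 4.67, lay within background.

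Downstream of the mitochondria, APAF1 was at 8.48 on both arrays. DIABLO, an antagonist of the inhibitor of apoptosis proteins, was at 6.45. Of these inhibitors, BIRC2, a ubiquitin ligase of the TNF receptor complex, was at 10.01 and XIAP, a direct inhibitor of caspases, at 8.03 on both arrays.

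The 5 apoptotic caspases were equal on both arrays. The initiators CASP2, CASP9 and CASP8 were at 9.77, 7.08 and 6.92, and the effector CASP6 was at 7.98. CASP10, a relative of caspase-8, was at 5.66, within background. The difference between apoptotic and inflammatory caspases was not tested, since there was 1 array per group.

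The 32 genes can also be ordered by the signals known to induce them. Of 6 genes that interferons are known to induce, all past the limit, CASP4, CASP1 and TNFSF10 were higher, MLKL was lower and CASP8 and PMAIP1 were equal. Thus 66.7% had unequal values, where 24.0% of all genes past the limit had, but the group holds all 4 genes that differed. It was drawn up with earlier results of these data known, so its share and median are no independent measure. The median difference of the 6 was 0.21, against 0 over all genes, and it lies midway between 0 and the 0.42 of CASP1. Without TNFSF10, whose values lay within background, the median of the other 5 was 0. Leaving out CASP1 or CASP4 in its place would give the same. Of 6 genes known as targets of NF-kappaB, 4 had a row of their own, BCL2L1, BIRC2, XIAP and BCL2A1, and all 4 were equal on both arrays. Of 7 genes known as targets of p53, namely BAX, PMAIP1, BID, APAF1, TNFRSF10A, CASP6 and CASP10, all 7 were equal. Since only 24.0% of all genes past the limit had unequal values, equal values were common, and these counts say little about NF-kappaB or p53.

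**Figure D3:**
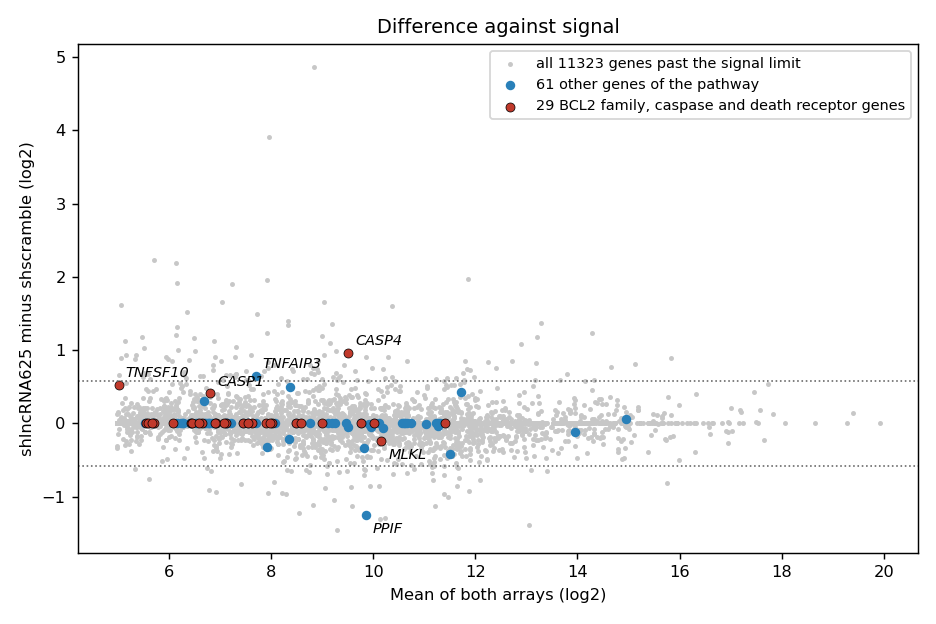
Difference between the shlncRNA625 and shscramble arrays (y axis, log2) against the mean of both arrays (x axis, log2) for all 11323 genes past the signal limit (grey), 61 other genes of the pathway (blue) and the 29 BCL2 family, caspase and death receptor genes (red), with dotted lines at 1.5-fold. CASP4 is the only red point beyond a dotted line, and PPIF and TNFAIP3 are the only blue ones.

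A wider list of 107 genes of the same pathways held 95 with a row of their own, of which 61 were past the signal limit. Of these, 5 were higher, 12 lower and 44 equal, and 27.9% had unequal values, where all genes at the same signal had 27.2%. Across the 11323 genes, not matched for signal, a higher value was seen in 11.8% and a lower one in 12.1%. Several of the 12 lower differences were small, being -0.006 for BIRC5, -0.007 for MAP3K7, -0.04 for VDAC1, VDAC2 and PARP1, and -0.06 for DFFA. Of the 5 higher genes, TMBIM6 differed by only 0.07. The split of 5 to 12 therefore says little about direction. By more than 1.5-fold 1 was higher and 1 lower, where the shares over all genes, 1.11% and 0.477%, would give 0.679 and 0.291 genes of 61. The wider list was drawn up with earlier results of these data known, so these counts are no independent measure. TNFAIP3, also known as A20, a ubiquitin-editing enzyme that restrains TNF receptor signalling, was at 8.02 on the shlncRNA625 array and 7.37 on the shscramble array, a difference of 0.65. PPIF, also known as cyclophilin D, a regulator of the mitochondrial permeability transition, was at 9.23 on the shlncRNA625 array and 10.47 on the shscramble array, a difference of -1.25. This was the 5th lowest difference among all genes past the limit.

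Among BCL2 relatives and mitochondrial membrane proteins, 3 of 16 genes were higher and 4 lower. Thus 43.8% had unequal values, where all genes at the same signal had 32.3%, or 5.17 genes of 16. The list is a mixed one, and among its unequal genes TMBIM6, VDAC1 and VDAC2 differed by only 0.07, -0.04 and -0.04. In the other 5 lists the unequal genes numbered 1 to 3, and the share of all genes at the same signal would give 1.47 to 3.62. The mitophagy receptors BNIP3 and BNIP3L were higher, by 0.50 and 0.43. BNIP3 was at 8.62 on the shlncRNA625 array and 8.11 on the shscramble array, and BNIP3L was at 11.93 on the shlncRNA625 array and 11.50 on the shscramble array. BAG3, a cochaperone that binds BCL2, differed by -0.21. Of 7 genes of mitochondrial release and inhibitor of apoptosis relatives, 2 were lower and 5 equal. The lower ones were CYCS and BIRC5, and BIRC5 differed by only -0.006. Cytochrome c itself, CYCS, was at 13.89 on the shlncRNA625 array and 14.00 on the shscramble array, a difference of -0.11.

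Of 7 other receptors and ligands, 1 was higher and 6 were equal. The higher one, TNFSF15, which encodes the ligand TL1A, differed by 0.30, with 6.84 on the shlncRNA625 array and 6.54 on the shscramble array. FAS was at 6.84 and TNFRSF10B, the other death-inducing receptor for TRAIL, at 7.54 on both arrays. Of 14 genes of receptor complexes and their ubiquitin enzymes, TNFAIP3 was higher, 2 were lower and 11 equal. The lower ones were PEA15 and MAP3K7, and MAP3K7 differed by only -0.007. PEA15, a death effector domain protein that blocks recruitment to FADD, was at 11.29 on the shlncRNA625 array and 11.71 on the shscramble array, a difference of -0.42.

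For necroptosis and pyroptosis, 10 genes were past the limit, of which 0 were higher, 2 lower and 8 equal. DPP9, a dipeptidyl peptidase that holds the NLRP1 and CARD8 inflammasomes in check, differed by -0.34, with 9.65 on the shlncRNA625 array and 9.98 on the shscramble array. PGAM5, a mitochondrial phosphatase linked to necroptosis, differed by -0.32, with 7.75 on the shlncRNA625 array and 8.07 on the shscramble array. GSDMD, the substrate of caspase-1 and caspase-4, was at 5.68 on both arrays, within background. The cytokines IL18 and IL1B, which caspase-1 cleaves, were equal on both arrays at 11.31 and 10.61. Of other caspases and their substrates, 2 of 7 were lower and 5 equal, the lower ones being DFFA, by -0.06, and PARP1, by -0.04.

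**Figure D4:**
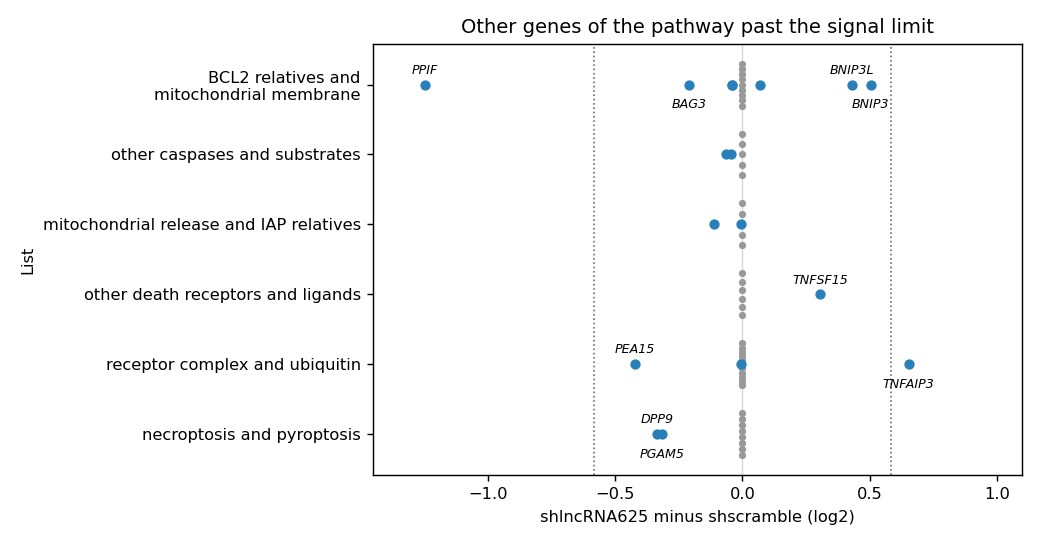
Difference between the shlncRNA625 and shscramble arrays (x axis, log2) of the 61 other pathway genes past the signal limit, by list (y axis), with genes that differ in blue, equal genes stacked in grey at 0 and dotted lines at 1.5-fold. PPIF at -1.25 and TNFAIP3 at 0.65 lie beyond the lines, and 44 of the 61 genes lie at 0.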

How the data were processed

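The authors deposited log2 values that, per the labels, come from RMA, a method of background correction, quantile normalization and summary over the probes of each row. No version, genome build or annotation is given in the sources used here. They reach 19.93, above the 16 that a 16-bit scanner allows, and the step behind this is not given either.

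Rows were named from the platform annotation, symbols being updated by gene ID to RefSeq (GRCh38.p14), and rows with several symbols were not used. No test was made, as each group held 1 array. Differences were described against a 1.5-fold limit on the deposited scale, among genes past the median signal of single-gene rows. All genes of the list were named. Of the wider list, those past 1.5-fold were named, with the 8 next in absolute difference, and others named were chosen after their values were seen. The genes and lists were chosen with earlier results of these data known. The gene step was run on a copy of the shscramble array with known shifts added. That copy held no noise, so the run checks the arithmetic only. Scaling was varied (centring on the median, quantile normalization repeated, a loess trend of span 0.3 removed, with and without robust weights), as were the rows (their mean), the filter (none, the 75th percentile, or the limit asked of both arrays) and the fold limit (2-fold). Python 3.11.15, pandas 2.3.3, NumPy 2.4.6, statsmodels 0.14.6 and matplotlib 3.10.9 were used.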

Additional observations from a re-analysis of the deposited data

Results flagged for a closer look

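Among the genes of these pathways, 37 stayed below the signal limit and took no part in the counts above, and 35 of them were equal on both arrays. The other 2 had a higher value on the shlncRNA625 array, which is why they are given here. CASP14, the caspase of keratinocyte cornification, was at 5.01 on the shlncRNA625 array and 3.90 on the shscramble array, a difference of 1.11. CARD16 differed by 0.15. All 4 values lay within background, at or below 6.003, so the sizes of these differences are uncertain.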

How the results depend on the processing

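At the 2-fold limit, 0 of the 29 genes were higher, since CASP4 differed by 1.96-fold, and 1 gene of the wider list passed, PPIF. With the filter at the 75th percentile, 7.60, 2 genes of the list differed at all, CASP4 and MLKL, and with the limit asked of both arrays 3 did, without TNFSF10. Without the filter 3 genes of the wider list passed 1.5-fold. CASP4 was the 1 gene past 1.5-fold on the list under all settings but the 2-fold limit, with differences of 0.96 to 0.97, and TNFAIP3 and PPIF kept 0.63 to 0.65 and -1.27 to -1.24. The filters and the mean over rows left these differences unchanged. Only centring, repeated quantile normalization and the loess without robust weights changed them. The planned loess with robust weights had a fit of 0 at every gene, since most differences are 0, so it moved nothing and tested nothing. A loess without those weights, added after the data were seen, moved the 29 genes by at most 0.02 and kept these counts. Centring, quantile normalization and that loess move equal values by construction, so unequal values were not counted there. No replicate can be left out with 1 array per group. Signal at or below 6.003, the highest of the background rows, limits TNFSF10, BCL2A1, BAK1, BAD, BIK, BMF, CASP10 and RIPK3.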

Other observations

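Many genes had not only the same value on both arrays but also the same value as other genes. Of the 29 genes past the limit, 18 or 62.1% had a pair of deposited values that at least 1 other gene had too, and of all genes past the limit 42.3% did. These shares were not matched for signal, so the gap between them says little about the 29 genes. BCL2 had the same pair as 14 other genes, CASP9 as 14, BAX as 11 and BAD as 27. Below the limit, BCL2A1 had the same pair as 140 other genes and RIPK3 as 237. None of CASP1, CASP4, TNFSF10 and MLKL shared its values with another gene. Which processing step leaves such repeated values is not stated.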
